A study of Arabidopsis thaliana with 18 samples.

Results

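The genes described here were those whose transcripts were at least 2-fold more abundant (a difference of 1 or more in log2(signal + 1)) after methyl jasmonate (MeJA) in jaz10phyb, in jaz10 and in Col plants alike. Of 5689 genes measured, 161 met this condition. Of these, 16 were set aside by name, among them JOX2, JMT and NAI1, and the other 145 are the members. Only 20 of the 145 carry a name or symbol in the annotation, and 125 are known here by their locus ID alone. The members were chosen by the MeJA and Control group means of jaz10phyb, jaz10 and Col, so their differences between MeJA and Control in those genotypes are given as a description without a test. The phyb differences were not used. The phyb arrays entered only through the signal minimum of 50 in any array and the choice of each gene's probe set by its mean over all arrays. Taking both without the phyb arrays gave 144 members, all among the 145. The gene lost was AT3G04000, which reached 50 only in phyb Control 2 (61.3, against at most 46.0 in the arrays of jaz10phyb, jaz10 and Col).

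RNA came from whole Arabidopsis thaliana plants, 4 weeks old, grown at 22 °C in days of 8 h light and 16 h dark. Plants were sprayed with 250 µM MeJA or with water, and harvested after 3 h. Each sample pooled at least 4 plants. The 18 arrays made 8 groups, namely jaz10phyb MeJA and jaz10phyb Control, jaz10 MeJA and jaz10 Control, Col MeJA and Col Control with 2 arrays each, and phyb MeJA and phyb Control with 3 arrays each. Col is wild-type Col-0, phyb carries phyB-9, jaz10 is a mutant of JAZ10, and jaz10phyb carries both mutations. The labels give no allele for jaz10. They also leave unsaid whether pools came from separate cultivations, so a p-value here reflects only how far these pools differ, which may be technical.

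Jasmonates are plant hormones made after wounding and attack. Inside the cell the active form, a conjugate with isoleucine, brings the receptor COI1 together with JAZ repressors, which are then degraded and release transcription factors such as the MYC proteins. JAZ10 is one of these repressors, itself induced by the hormone. Phytochrome B is a red-light receptor, and plants that lack it behave in part as if shaded, a state in which jasmonate responses are usually weaker. Sprayed MeJA is converted into active jasmonate in the plant. The question behind the design is whether loss of phytochrome B changes the response to MeJA, and whether this depends on JAZ10.

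The array medians lay between 14.87 and 17.5 signal units, so no array stood apart in overall brightness. The leaf list had 1 of 13 genes tested, RCA, a Rubisco activase, whose group means lay between 2849 and 3430. The root list had 1 of 8 genes tested, PYK10, a beta-glucosidase of endoplasmic reticulum (ER) bodies, whose group means lay between 706 and 1643. The flower list had 0 of 4 genes tested. PYK10 had mean signals of 1437 after MeJA and 706 in Control in jaz10phyb, 1643 and 739 in jaz10, 1091 and 941 in phyb as labelled, and 1550 and 955 in Col. It thus moved in the same direction as the members, but its log2 difference of 0.70 in Col missed the threshold, with 1.02 in jaz10phyb and 1.15 in jaz10. The part of PYK10 or of root tissue in the members' values was not tested. In whole plants, more cells of a type and more RNA per cell cannot be told apart.

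Before any result, the arrays labelled phyb MeJA 3 and phyb Control 2 need naming, because both resembled the opposite treatment. Each member's log2 signal was set against its own mean over all 18 arrays. The median of this deviation over the 145 members was -0.90 in phyb MeJA 3, while it lay between 0.53 and 1.01 in the other 8 arrays labelled MeJA. It was 0.73 in phyb Control 2, while it lay between -0.97 and -0.60 in the other 8 arrays labelled Control. The array labelled phyb Control 2 was above the array labelled phyb MeJA 3 in 145 of 145 members, against 47.7% of all genes. The array labelled phyb MeJA 3 was at least 1 below both other phyb MeJA arrays in 110 members (2.39% of all genes). The array labelled phyb Control 2 was at least 1 above both other phyb Control arrays in 114 members (2.74% of all genes). Results that rest on these arrays are given with and without both. The doubt rests on the response under study, so a call in phyb made without them is no independent support for that response.

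**Figure D1:**
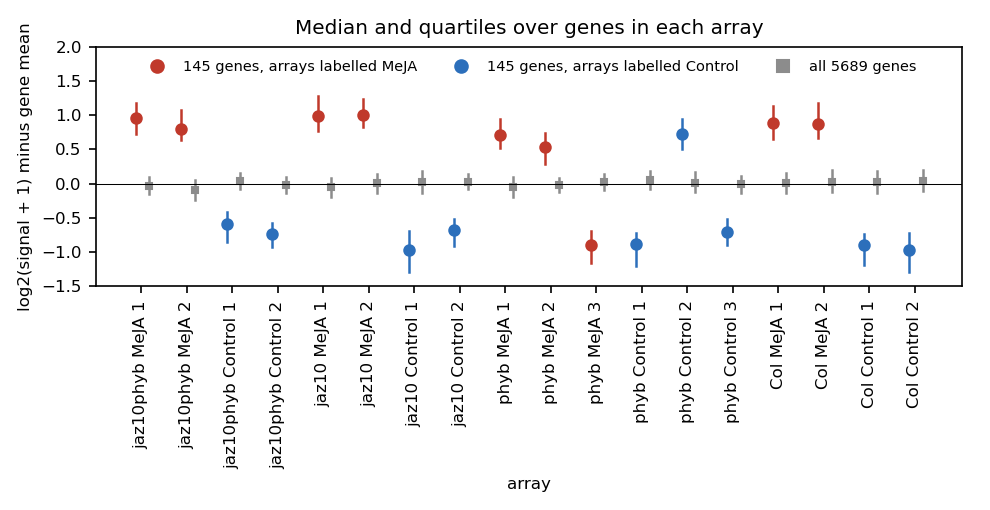
Median (points) and quartiles (bars) over genes of log2(signal + 1) minus each gene's own mean, for each of the 18 arrays. The 145 members are in red in arrays labelled MeJA and in blue in arrays labelled Control, and all 5689 genes in grey squares near 0. The array labelled phyb MeJA 3 has a median of -0.90 and the array labelled phyb Control 2 a median of 0.73, each on the side of the other treatment.

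In the genotypes that chose them, the members covered a wide range of responses. The difference between MeJA and Control had a median of 1.49 on the log2 scale in jaz10phyb (range 1.01 to 4.30), 1.88 in jaz10 (1.01 to 4.83) and 1.79 in Col (1.01 to 4.58). The medians over all 5689 genes were -0.08, -0.05 and -0.02 in the same order. Of all genes, 3.11% reached a difference of 1 in jaz10phyb, 3.92% in jaz10 and 4.34% in Col. Every MeJA array was above every Control array in all 3 genotypes for 145 of 145 members, against 9.37% of all genes, which the choice of members largely fixes. Only 29 members reached 2 in each genotype, 6 reached 3 and 1 reached 4. The smallest of the 3 differences was that of jaz10phyb in 105 members, that of Col in 31 and that of jaz10 in 9, while the largest was that of Col in 76, that of jaz10 in 63 and that of jaz10phyb in 6. In 77 members the 3 differences lay within 0.5 of each other, and in 14 they differed by 1 or more.

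**Figure D2:**
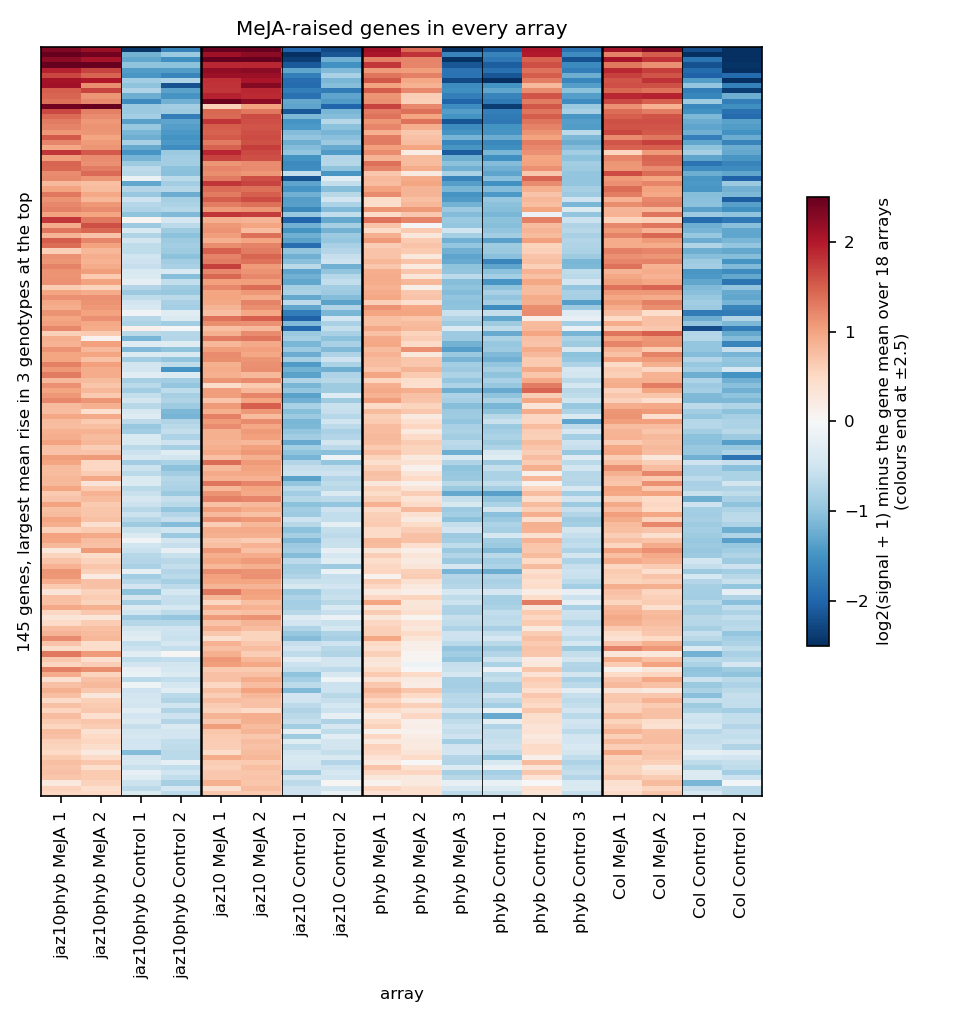
Heat map of the 145 members (down the page, largest mean difference at the top) in the 18 arrays (across), coloured by log2(signal + 1) minus the gene's mean, with colours ending at ±2.5. Thick lines part the genotypes and thin lines part MeJA from Control. Rows are red in MeJA arrays and blue in Control arrays of jaz10phyb, jaz10 and Col, and the array labelled phyb MeJA 3 is blue and the array labelled phyb Control 2 is red.

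The member with the largest difference in these genotypes was AT1G76640, annotated as CML39, a calmodulin-like protein of the kind that binds calcium. Its signals were 299.7 and 269.8 in jaz10phyb MeJA against 10.2 and 17.7 in jaz10phyb Control, and 385 and 408 in jaz10 MeJA against 14.3 and 11.8 in jaz10 Control. They were 263, 161.5 and 7.33 in phyb MeJA against 12.9, 245.5 and 15.6 in phyb Control, and 257 and 309.9 in Col MeJA against 12.01 and 9.74 in Col Control. Every MeJA array was far above every Control array in jaz10phyb, jaz10 and Col. In phyb the groups overlapped, because the third MeJA array was the lowest and the second Control array the second highest of the 6. The log2 difference was 4.30 in jaz10phyb, 4.83 in jaz10 and 4.58 in Col. All Control arrays but phyb Control 2 were below a signal of 50 (5.67 on the log2 scale), the minimum a gene had to reach in any array to be kept, so the size of this difference is uncertain.

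Low starting levels were common among the members. The mean Control signal was below 50 in 64 members in jaz10phyb, in 71 in jaz10 and in 74 in Col, and in all 3 genotypes in 63, against 649 of all 5689 genes. In another 67 members it was at least 50 in all 3. After MeJA, 8 members stayed below 50 in jaz10phyb, 4 in jaz10 and 7 in Col. Signal over background was not measured, so differences that start below 50 are uncertain in size.

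Beside AT1G76640, the members with the largest mean difference have no name in the annotation. AT1G54020 had differences of 3.79 in jaz10phyb, 4.81 in jaz10 and 4.47 in Col. AT4G11911 had 3.56, 4.39 and 4.19, and AT5G28237 had 3.62, 3.69 and 3.55 in the same order of genotypes. AT4G02360, AT5G19110, AT5G03204, AT5G26260, AT5G38710 and AT1G14120 completed the 10 largest, with differences between 2.63 and 4.10. All 10 were below 50 in both Col Control arrays.

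The members also differed in how equal the 3 genotypes were. AT3G28220 was the most unequal, with differences of 1.02 in jaz10phyb, 2.05 in jaz10 and 2.62 in Col. Its signals were 6292 and 5221 in jaz10phyb MeJA against 2999 and 2651 in jaz10phyb Control, and 4159 and 4333 in Col MeJA against 583 and 811 in Col Control. The jaz10phyb Control arrays were thus well above the Col Control arrays while the MeJA arrays lay closer together. AT1G61890 (1.25, 1.87 and 2.48 in jaz10phyb, jaz10 and Col), AT2G04080 (1.58, 2.67 and 2.77) and AT1G25422 (1.32, 1.91 and 2.42) came next. The most equal were AT1G32920 (1.03, 1.06 and 1.07 in the same order), AT1G72510 (1.17, 1.17 and 1.13), AT2G30720 (1.55, 1.59 and 1.61) and AT4G38810 (1.13, 1.18 and 1.12).

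Members just inside the threshold, by their smallest difference, were AT5G02940, AT1G48440, AT2G27310, AT4G30240 and AT3G28220, with smallest values between 1.01 and 1.02. Genes just outside were AT3G05165, AT3G19100, AT4G17680, AT5G54170 and AT3G20370, with smallest values between 0.97 and 1.00. Membership therefore separates genes that differ by a few hundredths at this edge.

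In phyb, whose differences were not used to choose the members, the difference between MeJA and Control depended on the 2 arrays described above. With all 6 phyb arrays as labelled, the median over the members was 0.43 (range -0.04 to 1.14), against -0.03 over all genes. The difference was above 0 in 143 of 145 members (41% of all genes) and at least 1 in 3 (0.0879%), which were AT1G54020, AT5G03204 and AT4G10290. No member and no gene passed the limma test at a Benjamini-Hochberg adjusted p under 0.05, so the background was 0%. At an unadjusted p under 0.05, limma gave 0 members as higher, against 46 genes (0.809% of all genes). In 0 of 145 members did every phyb MeJA array lie above every phyb Control array (2.36% of all genes).

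Without phyb MeJA 3 and phyb Control 2, the limma fit called 142 of 145 members higher after MeJA in phyb, against 6.91% of all genes (n = 2 arrays per group). The difference had a median of 1.40 (range 0.44 to 3.77), against -0.05 over all genes. It was above 0 in 145 members (41.7% of all genes) and at least 1 in 122 (2.79%). Both remaining phyb MeJA arrays were above both remaining phyb Control arrays in 145 members (23% of all genes). The phyb difference was below the smallest of the other 3 genotypes in 92 members and above the largest in 3, namely AT4G29700, AT4G27870 and AT3G04000, the gene that is a member only through phyb Control 2 and was called here. Whether the response differed between phyb and the other genotypes was not tested, because the rule had used one side of that contrast. The rule required a difference of at least 1 in the other 3 genotypes and not in phyb. That choice by itself favours lower differences in phyb. Leaving out 1 further array leaves 1 array in a group. Calls kept or lost in such fits, given below, rest on that array and on the spread pooled over the other groups. Members below 50 in Control in all 3 other genotypes were called in 61 of 63 cases, and those of at least 50 in 67 of 67. The shares called among all genes at these levels were not counted. The split therefore does not show how the calls depend on signal level.

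**Figure D3:**
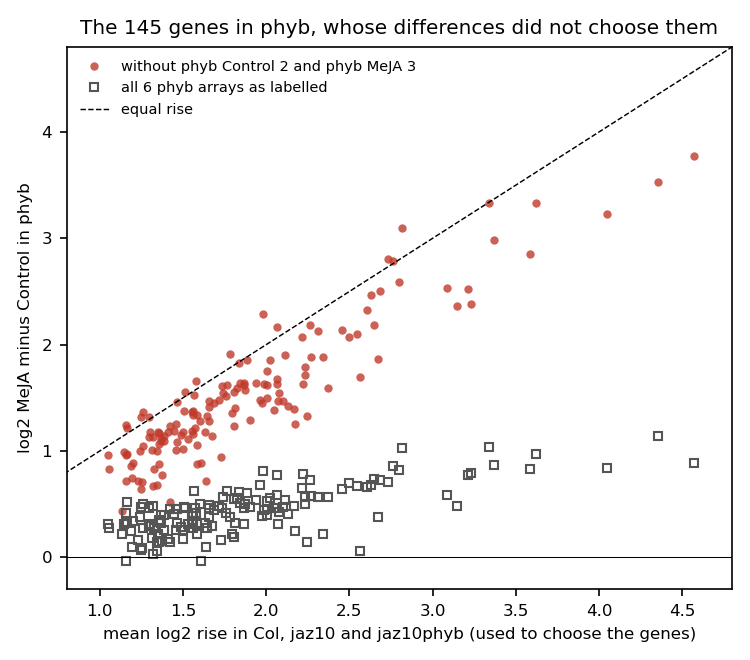
Log2 difference between MeJA and Control in phyb (vertical axis) against the mean difference in jaz10phyb, jaz10 and Col (horizontal axis), with 1 red circle per member without phyb MeJA 3 and phyb Control 2 and 1 open square per member with all 6 phyb arrays. The dashed line marks equal differences. The squares have a median of 0.43 and the circles a median of 1.40, and most circles lie below the dashed line. The choice of members by the genotypes on the horizontal axis favours that position.

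The members with the largest phyb differences came first. Without both arrays AT1G76640 rose by 3.77 ± 0.24 in phyb (SE, here and below; limma adjusted p = 5.7e-07), and with all 6 phyb arrays its difference was 0.88 ± 1.14 (limma adjusted p = 0.96). AT1G54020 had signals of 483, 411 and 36.6 in phyb MeJA against 36.2, 465 and 39.1 in phyb Control, with the third MeJA and the second Control array each beside the arrays of the other treatment. It rose by 3.53 ± 0.27 without both (limma adjusted p = 2.4e-06) and differed by 1.14 ± 0.95 with all (limma adjusted p = 0.96). AT5G03204, AT5G28237, AT4G11911, AT4G10290, AT5G19110, AT4G02360, AT1G54010 and AT5G66650 followed, with rises between 2.79 and 3.33 without both arrays. Of these 10 members, 7 were also among the 10 with the largest mean difference in the other genotypes.

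Named members were then taken by what they are known to do. NAI2, JAL34 and AT1G54010 belong with ER bodies, spindle-shaped compartments that store beta-glucosidases such as PYK10 and release them on damage. NAI2 is a structural component of ER bodies, JAL34 is a lectin known from the PYK10 complex, and AT1G54010 (GLL23) is a GDSL-like lipase found in the same complex. NAI2 had signals of 1558 and 1299.6 in jaz10phyb MeJA against 428 and 393 in jaz10phyb Control, 1758 and 1684 in jaz10 MeJA against 439 and 542.5 in jaz10 Control, and 1590.2 and 1632 in Col MeJA against 469 and 401 in Col Control. In phyb it had 1349, 1268 and 348 in MeJA against 338, 1235 and 398 in Control. No group but those of phyb overlapped, and the 3 differences of 1.79 in jaz10phyb, 1.82 in jaz10 and 1.89 in Col were close. In phyb without both arrays NAI2 rose by 1.83 ± 0.14 (limma adjusted p = 1.6e-06), and with all arrays it differed by 0.61 ± 0.48 (limma adjusted p = 0.96).

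JAL34 had signals of 320.0 and 258 in jaz10phyb MeJA against 67.7 and 72.8 in jaz10phyb Control, 305 and 302 in jaz10 MeJA against 77.5 and 67.8 in jaz10 Control, and 269 and 231 in Col MeJA against 74.7 and 97.9 in Col Control. In phyb the signals were 255, 324 and 56.2 in MeJA against 78.0, 281 and 110.5 in Control. The groups of jaz10phyb, jaz10 and Col were fully apart, with differences of 2.02, 2.05 and 1.53. JAL34 rose by 1.62 ± 0.18 in phyb without both arrays (limma adjusted p = 5.4e-05). GLL23 had differences of 2.53 in jaz10phyb, 2.79 in jaz10 and 2.88 in Col, and signals of 906, 1085 and 94.4 in phyb MeJA against 122, 1065 and 162 in phyb Control. It rose by 2.81 ± 0.20 in phyb without both arrays (limma adjusted p = 1.5e-06). NAI1, a regulator of ER bodies, and JAL23 also met the threshold and were among the 16 genes set aside by name.

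**Figure D4:**
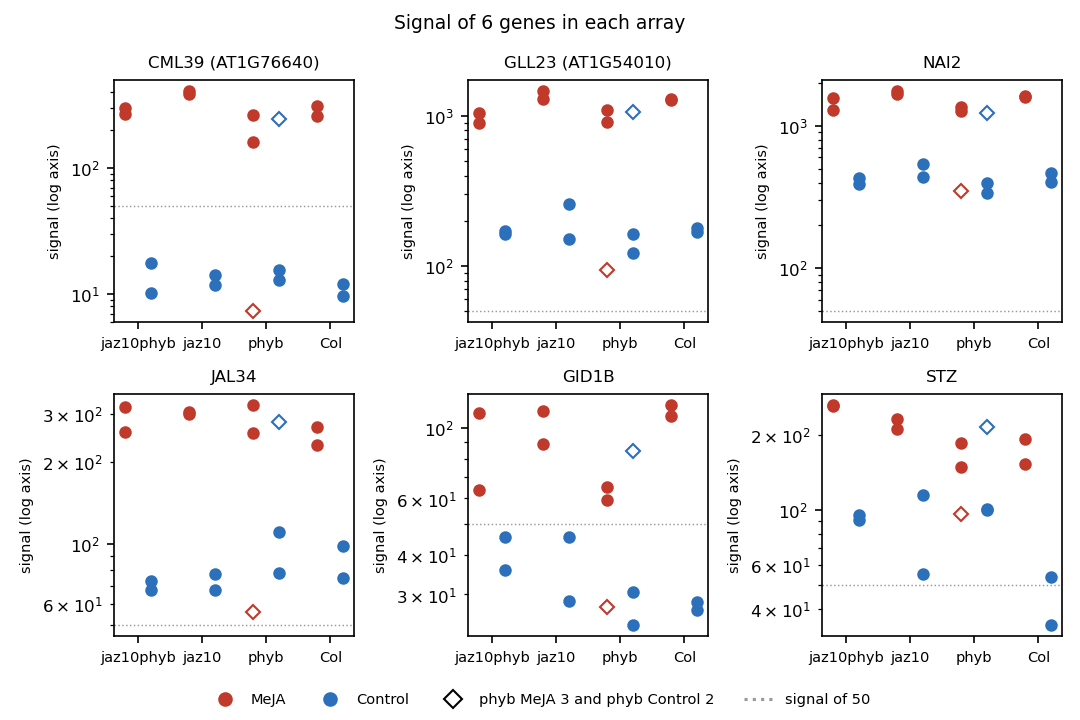
Signal (vertical log axis, 1 point per array) of CML39, GLL23, NAI2, JAL34, GID1B and STZ in each genotype, MeJA in red left of Control in blue. Open diamonds mark the arrays labelled phyb MeJA 3 and phyb Control 2, and the dotted line a signal of 50. MeJA arrays lie above Control arrays in jaz10phyb, jaz10 and Col for all 6 genes, and the diamonds lie on the other treatment's side; for STZ the phyb groups without the diamonds are closest, with signals of 185 and 149 after MeJA and 101 and 99.7 in Control.

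Hormone-related members came next. GID1A and GID1B are receptors of gibberellin, the growth hormone whose DELLA repressors also bind JAZ proteins. GID1B had signals of 63.6 and 111 in jaz10phyb MeJA against 35.7 and 45.4 in jaz10phyb Control, 113 and 88.8 in jaz10 MeJA against 28.7 and 45.4 in jaz10 Control, and 109 and 118 in Col MeJA against 26.8 and 28.4 in Col Control. In phyb it had 65.2, 59.4 and 27.4 in MeJA against 24.0, 84.3 and 30.5 in Control. The spread within jaz10phyb MeJA was large beside the difference of 1.05, while the Col arrays were tight around a difference of 2.00. GID1B rose by 1.17 ± 0.25 in phyb without both arrays (limma adjusted p = 0.0053), a call that was lost without phyb Control 1 (limma adjusted p = 0.064) or without phyb MeJA 1 (limma adjusted p = 0.054).

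GID1A had smaller differences of 1.21 in jaz10phyb, 1.45 in jaz10 and 1.07 in Col. Its signals in phyb were 127, 101 and 59.0 in MeJA against 78.6, 126 and 66.1 in Control. Without both arrays it rose by 0.64 ± 0.15 (limma adjusted p = 0.0095), among the smallest rises in phyb. That call was lost without phyb MeJA 1 (0.48, limma adjusted p = 0.13), without phyb Control 3 (0.52, limma adjusted p = 0.077) or with only the phyb arrays in the fit (limma adjusted p = 0.052). XERICO, a RING-H2 protein tied to abscisic acid, had differences of 1.101, 1.296 and 1.49 in jaz10phyb, jaz10 and Col. It rose by 1.13 ± 0.18 in phyb without both arrays (limma adjusted p = 0.00063).

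Among regulators and receptor-like proteins, STZ (also ZAT10), a zinc-finger repressor of stress genes, was 1 of the 3 members not called in phyb without both arrays. Its signals were 259.9 and 263 in jaz10phyb MeJA against 94.7 and 91.2 in jaz10phyb Control, 209.9 and 232 in jaz10 MeJA against 55.0 and 114 in jaz10 Control, and 192 and 152 in Col MeJA against 53.6 and 34.3 in Col Control. In phyb they were 185, 149 and 95.7 in MeJA against 101, 215 and 99.7 in Control. The difference was 1.48 in jaz10phyb, 1.46 in jaz10 and 1.97 in Col, and in phyb without both arrays it was 0.72 ± 0.27 (limma adjusted p = 0.086). It passed with a pseudocount of 16 (limma adjusted p = 0.048) and with only the phyb arrays in the fit (limma adjusted p = 0.025), and ranged up to a limma adjusted p of 0.42 under the other alternatives.

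EMS1, a receptor kinase known from anther development, stayed low throughout. Its signals were 29.4 and 34.9 in jaz10phyb MeJA against 11.1 and 16.9 in jaz10phyb Control, 59.6 and 48.2 in jaz10 MeJA against 11.8 and 14.9 in jaz10 Control, and 39.0 and 34.3 in Col MeJA against 12.5 and 19.8 in Col Control. In phyb they were 27.8, 26.3 and 16.9 in MeJA against 17.1, 26.4 and 20.0 in Control. Only jaz10 MeJA 1 exceeded 50. The phyb difference without both arrays was 0.52 ± 0.22 (limma adjusted p = 0.12). The last member not called in phyb was AT1G28190, with 0.44 ± 0.29 (limma adjusted p = 0.34). AT5G50915 rose by 0.67 ± 0.18 (limma adjusted p = 0.023) and AT3G51090 by 0.68 ± 0.13 (limma adjusted p = 0.0032), the other small rises. The call of AT5G50915 was lost with only the phyb arrays in the fit (limma adjusted p = 0.13), without a filter on signal (limma adjusted p = 0.078) and without phyb MeJA 1 or phyb Control 3 (limma adjusted p = 0.26 and 0.20), and that of AT3G51090 without phyb MeJA 1 (limma adjusted p = 0.054).

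LHW, a bHLH transcription factor of vascular development, had differences of 1.26 in jaz10phyb, 1.296 in jaz10 and 1.79 in Col. It had signals of 404, 336 and 172 in phyb MeJA against 167, 386 and 156 in phyb Control, and rose by 1.18 ± 0.11 without both arrays (limma adjusted p = 1.3e-05). FLR1 (FLOR1), a leucine-rich repeat protein, had differences of 2.13, 2.77 and 2.73 in jaz10phyb, jaz10 and Col. It rose by 2.096 ± 0.21 in phyb without both arrays (limma adjusted p = 2.3e-05).

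The enzymes among the named members included FAMT, a farnesoic acid methyltransferase, with signals of 2110 and 1921 in jaz10phyb MeJA against 801 and 625 in jaz10phyb Control and of 1968 and 1870 in Col MeJA against 386 and 267 in Col Control. Its jaz10phyb Control arrays lay above the Col Control arrays, and its differences were 1.51 in jaz10phyb, 1.99 in jaz10 and 2.57 in Col. It rose by 1.86 ± 0.28 in phyb without both arrays (limma adjusted p = 0.00049). CYP71B37, a cytochrome P450, had its smallest difference in Col, with 2.86 in jaz10phyb, 2.96 in jaz10 and 1.86 in Col. Its signals in phyb were 182, 92.0 and 18.3 in MeJA against 35.7, 178 and 43.4 in Control, and it rose by 1.70 ± 0.30 without both arrays (limma adjusted p = 0.0015).

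UGT76E12, a glucosyltransferase, had differences of 2.05 in jaz10phyb, 2.06 in jaz10 and 2.402 in Col, at signals below 50 in every array but jaz10phyb MeJA 2. It rose by 1.25 ± 0.25 in phyb without both arrays (limma adjusted p = 0.0034), a call lost with quantile normalization (limma adjusted p = 0.15) or without phyb MeJA 1 (limma adjusted p = 0.058). NATA2 (AT2G39020), an N-acetyltransferase of amino acid derivatives, had differences of 1.14, 1.28 and 1.36 in jaz10phyb, jaz10 and Col and rose by 1.05 ± 0.13 in phyb without both arrays (limma adjusted p = 0.00011). LKR/SDH (AT4G33150), which breaks down lysine, had 1.31, 1.45 and 1.27 and rose by 1.00 ± 0.18 in phyb without both arrays (limma adjusted p = 0.0019).

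Transport proteins were represented by OCT5, an organic cation and carnitine transporter, and by AT3G21670 (NPF6.4) and AT1G72120 (NPF5.14) of the nitrate and peptide transporter family. OCT5 had differences of 1.73 in jaz10phyb, 1.57 in jaz10 and 2.08 in Col, NPF6.4 had 1.04, 1.24 and 1.62, and NPF5.14 had 1.43, 1.90 and 1.42 in the same order. In phyb without both arrays they rose by 1.35 ± 0.22, 1.17 ± 0.16 and 1.34 ± 0.17 (limma adjusted p = 0.00075, 0.00023 and 0.00014). EULS3, a lectin, had 1.26, 1.47 and 1.34 and rose by 1.07 ± 0.14 in phyb without both arrays (limma adjusted p = 0.00015).

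Other genes of the pathways around jasmonate were sparsely covered, and most of those that met the threshold had been set aside by name. In phyb without both arrays, 1 of 2 tested genes of 19 on the jasmonate synthesis list was called higher (OPCL1, 0.88), 1 of 2 of 25 on the signalling list (MYC3, 0.60) and 3 of 3 of 11 on the catabolism list (JOX2, JOX3 and JOX4, 2.05, 2.82 and 1.39). On the wound and defence list 1 of 2 of 11 was called higher (CHAT, 2.60), on the glucosinolate list 0 of 2 of 26, on the sulfur list 1 of 2 of 15 (SIR, 0.39) and on the phenylpropanoid list 1 of 4 of 18 (DFR, 1.15). None of these lists had a gene called lower in phyb in that fit. The tryptophan synthesis list had 1 of 8 genes tested, the member AT2G04400, with differences of 1.31 in jaz10phyb, 1.54 in jaz10 and 1.66 in Col. It rose by 1.37 ± 0.17 in phyb without both arrays (limma adjusted p = 9.1e-05). With all arrays 0 genes of any list passed in phyb.

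Whether the members differed between genotypes over both treatments was tested on the mean of MeJA and Control in each genotype, a sum that the rule, which used differences, left free. With all arrays, limma called 0 of 145 members for jaz10phyb against Col (1.16% of all genes), for jaz10phyb against jaz10 (1.04%), for phyb against Col (1.25%) and for jaz10 against Col (0.0527%). At an unadjusted p under 0.05 limma gave 7, 2, 3 and 1 members in the same order, against 13.4%, 11.3%, 12.4% and 4.71% of all genes. The members' spread between arrays in this fit contains the 2 doubtful phyb arrays, also for comparisons that involve no phyb array. These comparisons share arrays of jaz10phyb or of Col, so they are not independent of each other.

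Without both arrays, 17 members were higher and 3 lower in jaz10phyb than in Col (1.93% and 2.67% of all genes). With only the 8 arrays of jaz10phyb and Col in the fit, limma called 22 higher and 3 lower (1.9% and 1.93% of all genes), and 18 members were called in both fits. The count of 20 lay between 10 and 19 when 1 more array of these groups was left out. It was 10 without jaz10phyb Control 1, 11 without jaz10phyb MeJA 1 or Col MeJA 1, 12 without jaz10phyb MeJA 2 or Col Control 2, and 13 without Col MeJA 2. Over all members the difference had a median of 0.10 and was above 0 in 95 (37.2% of all genes), against a median of -0.05 over all genes.

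**Figure D5:**
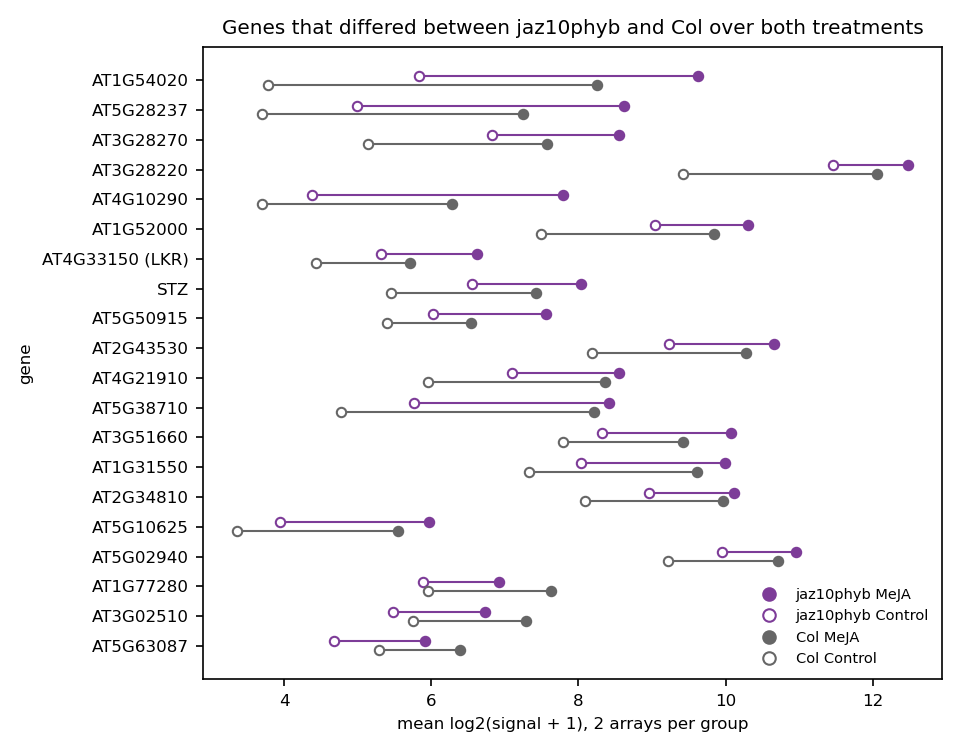
Mean log2(signal + 1) of 2 arrays per group (horizontal axis) for the 20 members that differed between jaz10phyb (purple, upper line of each gene) and Col (grey, lower line) over both treatments without the 2 doubtful phyb arrays. Filled circles are MeJA and open circles Control. The 17 higher members are at the top and the 3 lower ones, AT1G77280, AT3G02510 and AT5G63087, at the bottom, where the purple pair lies left of the grey pair.

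AT1G54020 differed most, with signals of 989 and 624 in jaz10phyb MeJA and 50.9 and 61.1 in jaz10phyb Control, against 276 and 334 in Col MeJA and 14.7 and 11.1 in Col Control. Within each treatment both jaz10phyb arrays were above both Col arrays. The mean over treatments was higher in jaz10phyb by 1.71 ± 0.19 without both doubtful arrays (limma adjusted p = 0.00036), and the same difference had a limma adjusted p of 0.39 with all arrays. AT5G28237 (1.34 ± 0.15), AT3G28270 (1.33 ± 0.16), AT3G28220 (1.23 ± 0.22), AT4G10290 (1.09 ± 0.25) and AT1G52000 (1.01 ± 0.12) followed, with limma adjusted p between 0.00036 and 0.027 without both arrays and between 0.13 and 0.56 with all. The Control arrays of AT5G28237 and AT4G10290 were below 50 in jaz10phyb and Col, and those of AT1G54020 and AT3G28270 in Col. The sizes of these differences are therefore uncertain. AT3G28220 is the member that was most unequal in its response. Its jaz10phyb arrays were above its Col arrays in each treatment, by more in Control than in MeJA.

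Of the named members, LKR/SDH and STZ were higher in jaz10phyb in both of these fits, and FAMT only with the jaz10phyb and Col arrays alone (0.60 ± 0.13, limma adjusted p = 0.035). LKR/SDH had signals of 107 and 89.4 in jaz10phyb MeJA and 34.9 and 43.1 in jaz10phyb Control, against 51.9 and 50.7 in Col MeJA and 18.1 and 23.5 in Col Control, with no overlap within a treatment. It was higher by 0.90 ± 0.13 without both doubtful arrays (limma adjusted p = 0.0019), and had a limma adjusted p of 0.21 with all arrays. Its Control arrays in jaz10phyb and Col were below 50, so the size of this difference is uncertain. STZ was higher by 0.85 ± 0.19 without both (limma adjusted p = 0.024) and had a limma adjusted p of 0.19 with all, and its signals above show no overlap within a treatment either.

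The 3 lower members were AT5G63087 (-0.54 ± 0.11), AT3G02510 (-0.42 ± 0.08) and AT1G77280 (-0.38 ± 0.09), with limma adjusted p between 0.0064 and 0.024 without both arrays. AT1G77280 had signals of 120.6 and 120.5 in jaz10phyb MeJA against 207 and 186 in Col MeJA, and of 59.5 and 57.2 in jaz10phyb Control against 67.9 and 55.3 in Col Control. The Control arrays overlapped, and the MeJA arrays did not.

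Against jaz10, 8 members were higher and 2 lower in jaz10phyb without both arrays (1.58% and 2% of all genes), and 9 higher and 3 lower with only the arrays compared (1.34% and 1.21%). Of these, 9 were called in both fits. The count of 10 lay between 5 and 15 when 1 more array was left out, and was 5 or 6 without jaz10phyb MeJA 2, jaz10phyb Control 2, jaz10 MeJA 1 or jaz10 MeJA 2. AT4G10290 differed most, with signals of 206 and 237 in jaz10phyb MeJA against 57.7 and 77.1 in jaz10 MeJA, and of 19.3 and 20.3 in jaz10phyb Control against 14.6 and 8.78 in jaz10 Control. It was higher by 1.23 ± 0.25 (limma adjusted p = 0.016), with its Control arrays all below 50. AT1G54020 (1.07 ± 0.19), AT3G28270 (1.07 ± 0.16), AT5G28237 (0.76 ± 0.15), AT1G52000 (0.72 ± 0.12) and AT5G10625 (0.57 ± 0.13) were higher too. The call of AT5G10625 was lost with only the arrays compared (limma adjusted p = 0.062). AT5G10625 reached 50 only in jaz10phyb MeJA (59.5 and 63.6) and in jaz10 MeJA 1 (51.35). Its highest Col signal was 49.1, and it was also among the members called higher in jaz10phyb than in Col. Keeping it through the group in which it was high by itself favours a higher value in jaz10phyb.

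The largest negative difference was that of AT3G02510, at 106 and 104 in jaz10phyb MeJA against 177 and 183 in jaz10 MeJA, and at 44.1 and 42.8 in jaz10phyb Control against 67.1 and 76.1 in jaz10 Control. Its arrays did not overlap in either treatment, and it was lower by -0.74 ± 0.08 (limma adjusted p = 0.00026), while with all arrays its limma adjusted p was 0.15. AT1G52720 was lower by -0.52 ± 0.11 (limma adjusted p = 0.017). Over all members this difference had a median of -0.06 and was above 0 in 62 (42.5% of all genes), against a median of -0.03 over all genes.

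In phyb against Col without both arrays, 5 members were higher and 5 lower (1.86% and 2.09% of all genes), and with only the phyb and Col arrays, doubtful ones included, limma called none (0.65% of all genes). The higher ones were AT1G54020 (1.02 ± 0.19), AT3G28220 (0.93 ± 0.22), AT3G28270 (0.89 ± 0.16), AT1G52000 (0.84 ± 0.12) and AT3G51660 (0.44 ± 0.11). The Col arrays are those that jaz10phyb was compared with. AT1G52000 had signals of 1204, 1198 and 413 in phyb MeJA and 398, 1365 and 485 in phyb Control, against 1028 and 821 in Col MeJA and 178 and 179.8 in Col Control. Its phyb arrays other than phyb MeJA 3 were above the Col arrays of their own treatment. The lower ones were AT1G77280 (-0.63 ± 0.09), AT1G25422 (-0.49 ± 0.11), AT1G30320 (-0.45 ± 0.11), AT4G38810 (-0.36 ± 0.08) and AT3G02510 (-0.33 ± 0.08). AT1G25422 reached the signal minimum of 50 only in Col MeJA, with 54.6 and 61.3. Its next highest signal was 49.3, in jaz10 MeJA 2. It was thus kept through the group in which it was high. That choice by itself favours a lower value in phyb than in Col. The count of 10 lay between 5 and 10 when 1 more array was left out, with 5 without phyb MeJA 2, Col MeJA 2 or Col Control 1. With all arrays the difference was above 0 in 55 members (43.2% of all genes), with a median of -0.07 against -0.02 over all genes.

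For jaz10 against Col, limma called 0 members without both arrays as well (0.0703% of all genes) and 0 with only the arrays compared. The difference was above 0 in 121 of 145 members (43.5% of all genes), with a median of 0.14 against -0.02 over all genes.

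Split by treatment, and as a description since the rule used these groups, the Control level of jaz10phyb was above that of Col in 114 of 145 members, with a median difference of 0.24 against -0.02 over all genes. The MeJA level was above that of Col in 70, with a median of -0.01 against -0.08 over all genes. In jaz10 the Control level was above that of Col in 109 members and the MeJA level in 106. The medians were 0.14 and 0.15, against -0.004 and -0.035 over all genes. In phyb without both arrays the median difference to Col was 0.12 in Control and -0.29 in MeJA, against -0.01 and -0.05 over all genes. The rule used the Col groups and not the phyb groups. That choice by itself favours phyb levels above Col in Control and below Col in MeJA.

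The members were spread over the genome. Of the 145, 44 lay on chromosome 1, 21 on chromosome 2, 30 on chromosome 3, 21 on chromosome 4 and 29 on chromosome 5 (TAIR10.1). The share on chromosome 1 was 30.3%, against 25.4% of all tested genes, and that on chromosome 5 was 20.0%, against 23.4%. The median gene length was 2244 bases, against 2602 over all tested genes. In 4 cases both of a pair of neighbouring protein-coding genes were members, namely AT1G14120 with AT1G14130, AT1G54010 with AT1G54020, AT3G46650 with UGT76E12, and AT5G19100 with AT5G19110. Whether such neighbours share probe sequence is not known here, so their values are uncertain as separate measurements. Another 61 tested genes lay next to a member without being one, and 5 of them were called higher in phyb without both arrays, a share near the 6.91% of all genes, with a median difference of 0.12.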

How the data were processed

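The authors deposited a table of signal intensity per probe set. Per the submitters' processing notes, Affymetrix Expression Console was used. The sources used here give neither its version nor the summarisation method nor a genome build. The values are on a linear scale, and log2(value + 1) was taken. Of 38408 probe sets, the platform annotation paired 16722 with 1 gene, 759 with several and 20927 with none; 16574 were matched to TAIR10.1, used for names, gene length and gene order. For each gene the single-gene probe set with the highest mean was kept if its signal reached 50 in any array, which left 5689 genes.

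Groups came from the sample titles. A limma model (limma 3.58.1, R 4.3.3) with 8 group means was fitted to all 18 arrays, with Benjamini-Hochberg adjustment over 5689 genes and calls at an adjusted p under 0.05; it was tested on simulated data. A replicate block, only the groups compared, other filters, pseudocounts and normalizations, and each array left out in turn were the alternatives. The fit without phyb MeJA 3 and phyb Control 2 was made a result of its own after seeing the data. Members and gene lists were chosen with earlier results of these data known. Named genes were the members with a symbol, the 10 with the largest mean difference, the 10 largest and 5 smallest in phyb, up to 6 higher and 6 lower per genotype comparison, 5 on each side of the threshold, the 4 most and 4 least equal, and list genes. AT1G72120, AT2G39020, AT3G21670 and AT4G33150, which carry a name but no symbol, and AT3G04000, AT4G29700, AT4G27870, AT1G14130, AT3G46650 and AT5G19100 were named after their values were seen. The number of arrays limits the precision.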

Additional observations from a re-analysis of the deposited data

How the results depend on the processing

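The number of members was 145, and it was 110 with a pseudocount of 16, 162 without a filter, 117 with a signal of at least 100, 145 after quantile normalization, 144 with the signal minimum and probe sets taken without phyb arrays (an alternative chosen after seeing the data), 153 with array medians centred, 107 when every MeJA array had to lie at least 1 above every Control array, and between 132 and 153 with 1 array left out. Members called higher in phyb were 0 with all arrays and 0 whichever single phyb array was left out, 142 without both doubtful phyb arrays, and 138 without both and with a replicate block. With 1 more array left out, a group holds 1 array and the calls rest on the spread of the other groups, so these fits say little about how steady the 142 is. Under the other alternatives the 142 lay between 116 (of 117 members kept) and 143. Members that differed between jaz10phyb and Col were 0 with all arrays, 20 without both, 25 with only the groups compared, and 1 with a replicate block (17 with the block and without both). Between jaz10phyb and jaz10 the counts were 0, 10 and 12, and 11 with the block and without both. Between phyb and Col they were 0 with all arrays, 10 without both, and 4 with the block and without both. With 1 more array left out, these counts without both lay between 10 and 19, between 5 and 15, and between 5 and 10. Without a filter they were 10, 6 and 4, and with a pseudocount of 16 the count between phyb and Col was 16. For jaz10 against Col the count was 0 under each alternative. The causes were not tested. The deviations of same-numbered MeJA and Control arrays correlated at 0.0998 in jaz10phyb, -0.0195 in jaz10, -0.721, 0.452 and 0.602 in phyb and 0.0937 in Col. In jaz10phyb, jaz10 and Col these values showed little pairing by replicate number. Each of these genotypes gives only 1 value, because the deviations of 2 arrays mirror each other. The phyb values include both doubtful arrays, so they cannot show whether the phyb samples were paired. Of 52 named members checked, 7 lost their call in phyb under some alternative to the fit without both arrays, STZ gained it under 2, and none changed direction. Signals below 50 limit the size of many differences, and with 2 arrays per group most calls depend on the pooled spread.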
